A study of Arabidopsis thaliana with 12 samples.

Results

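Loss of the iron transporter IRT1 was examined in roots that were supplied with iron (Fe). The comparison set the 2 root arrays of the Arabidopsis thaliana irt1 mutant grown with Fe against the 2 root arrays of wild type grown with Fe, 4 of the 12 arrays of the study. They were chosen by the tissue, genotype and Fe supply in the sample titles, and all 22746 probe sets other than the 64 Affymetrix controls were compared.

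The mutant is irt1-2, a single line also named pam42, and the wild type is Col-0, the accession that the series title pairs with it. Seedlings of both genotypes were pre-cultivated for 10 days on plates of dilute Hoagland medium with sucrose. They were then moved for 5 days to agar that had been washed to strip contaminating metals and that held 10 µM Fe-HBED, an Fe chelate. Roots were taken at an age of 15 days, 3 h into the light period. Wild-type roots kept for the same 5 days without added Fe, and shoots of all the plants, were measured in the same study with 2 arrays a group and are used below only to show where irt1 roots differ from them. The titles call the samples biological replicates and do not say how many plants or plates each pooled, so p-values measure the spread between these samples.

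Arabidopsis takes up Fe by acidifying the soil, reducing ferric Fe at the root surface with FRO2 and importing ferrous Fe through IRT1 in the root epidermis. Coumarins made and secreted by the root help to dissolve ferric Fe. A cascade of bHLH transcription factors, IMA peptides and the hemerythrin E3 ligases BTS, BTSL1 and BTSL2 sets the strength of this response to the Fe status of the plant. Mutants without IRT1 are chlorotic and Fe-deficient unless given large amounts of Fe.

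IRT1 itself is not analysed here, because the annotation used pairs no probe set with it. The genotype labels therefore could not be checked on the targeted gene. The same holds for FRO2, FIT and AHA2, and of the 22746 probe sets 13513 were paired with 1 gene, 503 with several and 8730 with none. Replicate arrays correlated with r between 0.991 and 0.9963 across probe sets in every group. Array medians lay between 5.4 and 5.6 on the log2 scale, and the SD of replicate 1 minus replicate 2 over probe sets was 0.203 in irt1 roots and 0.188 in wild-type roots with Fe. The root markers PER27 and EXPA7 summed to log2 levels of 19.8 to 20.2 in irt1 roots and 19.4 to 19.7 in wild-type roots with Fe, against 7.4 to 8.9 in shoots, so the root label fits these markers. In whole roots, fewer cells of a type and less RNA per cell cannot be told apart.

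In irt1 roots 428 probe sets were higher and 346 were lower than in wild-type roots with Fe (limma, adjusted p under 0.05), 3.4% of those tested (1.88% higher and 1.52% lower). With each array centred on its own median, which shifted the median log2 fold change of all probe sets to 0.05, the calls were 479 higher and 238 lower, so that 66.8% were higher in place of 55.3%. The called probe sets had a median log2 fold change of 0.85 where higher and -0.75 where lower, against a median of 0 over all probe sets. The upper end reached further than the lower end, with 157 probe sets (0.69%) at least 2-fold higher and 88 (0.387%) at least 2-fold lower. At least 4-fold were 28 higher and 8 lower, and at least 8-fold 10 higher and 2 lower. Of the called probe sets 391 carried 1 gene, 227 of them higher and 164 lower in irt1. In every called probe set the irt1 arrays lay apart from the wild-type arrays, which was also true of 37.0% of all probe sets. The calls rest on a spread shared by all 12 arrays: a limma model of these 4 arrays alone called 0 probe sets, with 4258 at an unadjusted p under 0.05. The number called dropped to 252 when irt1 replicate 1 was left out, to 359 with irt1 replicate 2, to 286 with wild-type replicate 2 and to 317 with wild-type replicate 1 left out. Among the genes below, the calls of F6H1, BTSL2, ZIP9, PORB, CHLI2, RCA, BGLU15, EXPA4, AT1G65500, AT5G64120, AT4G13580 and AT3G56350 were lost whichever of the 4 arrays was left out. Those of PYE, SBPASE, UGT73D1, UGT73B4, EXPA15, GSTU21, scpl20, SCPL32, AT5G14130, AT2G36885, AT3G53370 and AT5G26270 were lost with 3 of the 4, and those of AT5G66390, AT1G10640, PDF2.1 and LHCB4.1 with 2.

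**Figure D1:**
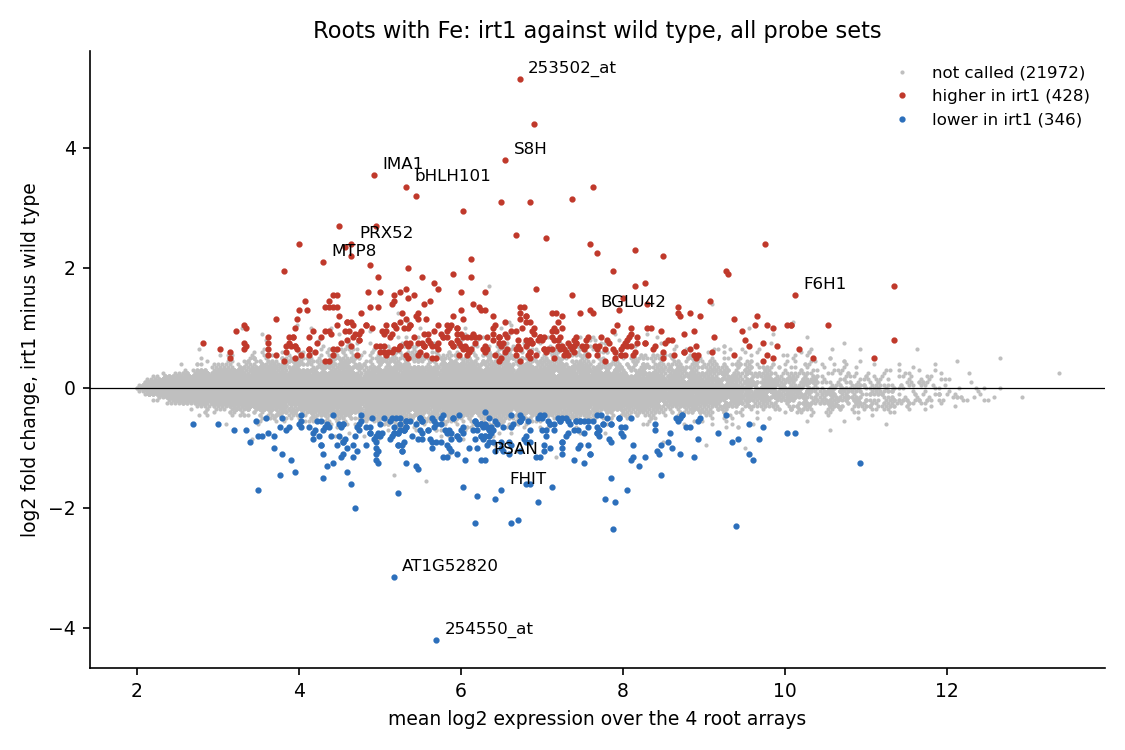
Log2 fold change of irt1 over wild-type roots with Fe (y axis) against the mean log2 expression over the 4 arrays (x axis), 1 point per probe set, red where called higher in irt1, blue where called lower and grey otherwise. The upper tail, led by 253502_at, 251677_at, S8H, IMA1 and bHLH101, holds more probe sets past 4-fold than the lower tail, which ends in 254550_at and AT1G52820.

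Genes of Fe mobilisation by coumarins were higher in irt1 roots. S8H (AT3G12900), the scopoletin 8-hydroxylase that makes the Fe-mobilising coumarin fraxetin, had log2 levels of 8.7 and 8.2 in irt1 roots, against 9.8 and 10.3 in wild-type roots without Fe and 4.5 and 4.8 in wild-type roots with Fe. It lay well above wild type with Fe in both mutant arrays, 13.9-fold on average (limma adjusted p = 8.6e-06), and below both Fe-deficient arrays. F6H1 (AT3G13610), the feruloyl-CoA 6'-hydroxylase that starts coumarin synthesis, had levels of 11.0 and 10.8 in irt1 roots and 9.3 and 9.4 in wild-type roots with Fe. It was 2.93-fold higher in irt1 (limma adjusted p = 0.0295), with no overlap. BGLU42 (AT5G36890), a glucosidase that frees scopoletin from its glucoside before secretion, had 8.3 and 8.2 in irt1 roots, against 9.7 and 10.3 in wild-type roots without Fe and 7.0 and 7.0 in those with Fe. Both mutant arrays lay between the wild-type groups. In a model of the 6 root arrays BGLU42 was not called over Fe-supplied wild type (limma adjusted p = 0.0864), while S8H and F6H1 were. Of the 16 genes of the list of root Fe uptake and mobilisation, 5 were measured. Of these 3 rose and 0 fell, where 1.88% of all probe sets were called higher. The median log2 fold change of the 5 was 1.25. The remaining pair were CYP71B5, at a log2 fold change of 0.80 (limma adjusted p = 0.0538), and the coumarin synthase COSY, at 0.35.

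Several regulators of the Fe deficiency response were also higher in irt1 roots. IMA1 (AT1G47400), a small peptide that promotes the Fe deficiency response, had log2 levels of 6.8 and 6.6 in irt1 roots, against 8.6 and 8.5 in wild-type roots without Fe and 2.8 and 3.5 in those with Fe. The mutant arrays stood far above the Fe-supplied ones, 11.7-fold (limma adjusted p = 5.6e-06), with no overlap with either wild-type group. bHLH101 (AT5G04150), a subgroup Ib transcription factor that pairs with FIT, had 7.3 and 6.7 in irt1 roots, 8.3 and 8.2 in wild-type roots without Fe and 3.7 and 3.6 in those with Fe, again between both wild-type groups and 10.2-fold above the Fe-supplied one.

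Of the 24 regulators on the list 14 were measured, 5 of which rose and 0 fell, where 1.88% of all probe sets were called higher. The median log2 fold change of the 14 was 0.25. BTSL1, a hemerythrin E3 ligase that restrains Fe uptake in roots, rose by a log2 fold change of 1.75, and its relative BTSL2 by 0.85. PYE, a bHLH repressor of genes of Fe distribution, rose by 0.70 and is given here although it falls outside the rule for named genes, after its value was seen. The other 9 regulators were not called. They included the subgroup IVc factors ILR3, bHLH115, bHLH104 and bHLH34, which act upstream of the Ib genes and had log2 fold changes of 0.20, 0.30, 0.00 and -0.40.

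Transporters of other metals and cell wall genes of root hairs had few measured members. MTP8 (AT3G58060), which loads manganese into the vacuole, had levels of 5.4 and 5.3 in irt1 roots, 6.9 and 7.2 in wild-type roots without Fe and 3.4 and 3.1 in those with Fe. It rose 4.29-fold (limma adjusted p = 8.6e-06), with the mutant between both wild-type groups. ZIP9, of the same transporter family as IRT1, rose by a log2 fold change of 1.35. These were the calls among 4 measured of 19 genes for zinc, manganese and cadmium transport. In the copper list the plantacyanin gene ARPN rose by 1.05, of 2 measured among 15. XTH26, a root hair xyloglucan endotransglucosylase, had 5.9 and 5.9 in irt1 roots and 4.0 and 4.1 in wild-type roots with Fe, a rise of 3.61-fold. It was the 1 call among 5 measured of 20 root hair genes.

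**Figure D2:**
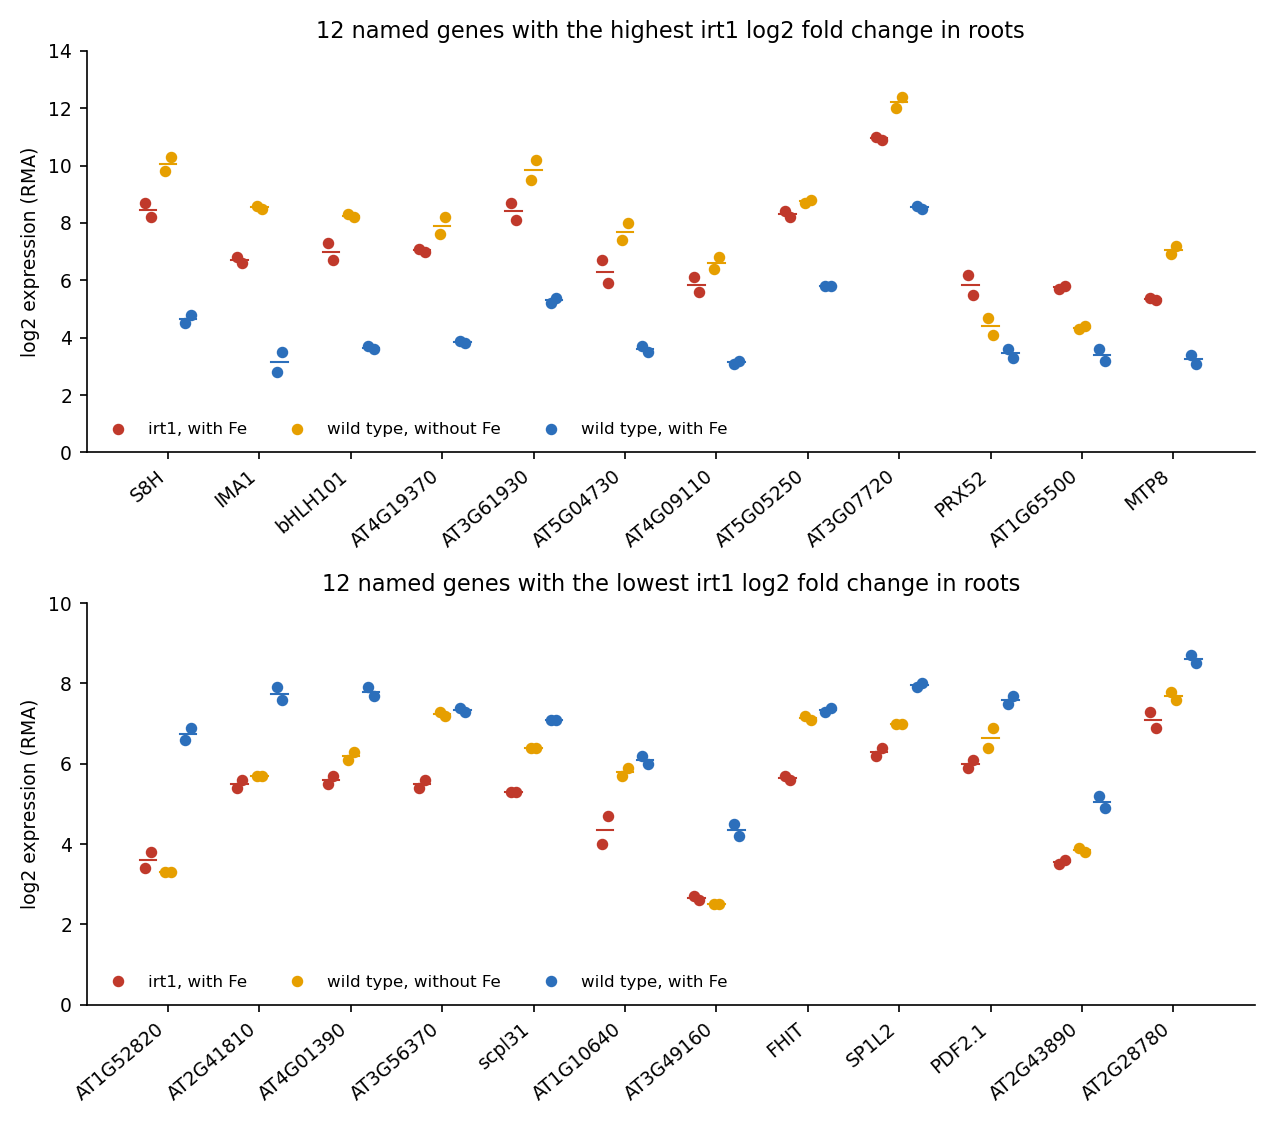
Log2 expression (y axis) of the 12 named genes with the highest and the 12 with the lowest log2 fold change in irt1 roots, with both arrays of each group as points and their mean as a bar; irt1 with Fe in red, wild type without Fe in orange, wild type with Fe in blue. Most of the upper genes, such as S8H, IMA1 and MTP8, have irt1 between the wild-type groups, while PRX52 and AT1G65500 have irt1 above both. Most of the lower genes have irt1 under both, while AT1G52820 and AT3G49160 have irt1 between them. Of the lower genes FHIT, AT3G56370, scpl31 and AT1G10640 were also called against Fe-deficient wild type. There the calls of scpl31 and AT1G10640 were lost with 4 and 3 of the 4 arrays left out in turn.

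Among the other genes at the upper end, AT4G19370 had log2 levels of 7.1 and 7.0 in irt1 roots, 7.6 and 8.2 in wild-type roots without Fe and 3.9 and 3.8 in those with Fe. AT3G61930 had 8.7 and 8.1 in irt1 roots, 9.5 and 10.2 in wild-type roots without Fe and 5.2 and 5.4 in those with Fe. Both lay between the wild-type groups and rose by log2 fold changes of 3.20 and 3.10. AT5G04730 and AT4G09110 rose by 2.70 each, AT5G05250 by 2.50, AT3G07720 by 2.40 and AT1G65500 by 2.35. The last of these had the largest SE of the 12 highest named genes, 0.44. PRX52 (AT5G05340), a class III peroxidase of lignin formation, had 6.2 and 5.5 in irt1 roots, against 4.7 and 4.1 in wild-type roots without Fe and 3.6 and 3.3 in those with Fe. In PRX52 and AT1G65500 the mutant arrays lay over both wild-type groups, and the difference from Fe-deficient wild type was called for PRX52 and not for AT1G65500 (limma adjusted p = 0.00959 and 0.179).

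Genes lower in irt1 roots were led by AT1G52820, a 2-oxoglutarate-dependent oxygenase gene, with log2 levels of 3.4 and 3.8 in irt1 roots, 3.3 and 3.3 in wild-type roots without Fe and 6.6 and 6.9 in those with Fe. It was 8.88-fold lower than in wild type with Fe (limma adjusted p = 2.64e-06), and the mutant overlapped neither wild-type group but lay within 0.5 of the Fe-deficient arrays. AT2G41810, a cell wall protein of the DUF642 family, had 5.4 and 5.6 in irt1 roots, 5.7 and 5.7 in wild-type roots without Fe and 7.9 and 7.6 in those with Fe. AT4G01390 had 5.5 and 5.7 in irt1 roots, 6.1 and 6.3 in wild-type roots without Fe and 7.9 and 7.7 in those with Fe. In both genes the mutant arrays lay under all the wild-type arrays, and the difference from Fe-deficient wild type was not called (limma adjusted p = 0.824 and 0.0501). AT3G49160, of the pyruvate kinase family, SP1L2, a SPIRAL1-like microtubule protein, and the defensin PDF2.1 had log2 fold changes of -1.70, -1.65 and -1.60. AT1G10640 and AT2G43890, both of the pectin lyase-like superfamily, had -1.75 and -1.50, and AT2G28780 had -1.50.

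Probe sets without a gene in the annotation included the extremes in both directions and are given by identifier only. 253502_at had log2 levels of 9.6 and 9.0 in irt1 roots, 10.3 and 10.5 in wild-type roots without Fe and 4.5 and 3.8 in those with Fe, a 35.5-fold difference from the last. 251677_at was 21.1-fold higher in irt1 than in wild type with Fe. 254550_at had 3.7 and 3.5 in irt1 roots, 11.7 and 11.8 in wild-type roots without Fe and 7.9 and 7.7 in those with Fe. It was 18.4-fold lower in irt1 than in wild type with Fe and 284-fold lower than in wild type without Fe, and its level in irt1 roots lay in the range of 3.1 to 3.7 seen in irt1 shoots. 254098_at was 5.10-fold lower in irt1 than in wild type with Fe.

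Most of the measured nuclear genes of photosystems were lower in irt1 roots. PSAN (AT5G64040), a photosystem I subunit, had log2 levels of 5.5 and 5.9 in irt1 roots, 5.1 and 4.9 in wild-type roots without Fe and 6.8 and 7.0 in those with Fe. LHCB4.2, a photosystem II antenna protein, had 6.0 and 6.4 in irt1 roots, 6.0 and 6.0 in wild-type roots without Fe and 7.1 and 7.4 in those with Fe. In both genes the mutant arrays lay under the Fe-supplied ones. Against Fe-deficient wild type PSAN was 1.62-fold higher (limma adjusted p = 0.0431, a call lost whichever of those 4 arrays was left out), and LHCB4.2 had a log2 fold change of 0.20 that was not called. Of the 28 measured photosystem and antenna genes 7 fell and 0 rose, where 1.52% of all probe sets were called lower. The median log2 fold change of the 28 was -0.25. Split by genome after the annotation was seen, 8 were nuclear, with 7 lower and a median of -0.92, and 20 were plastid-encoded, with 0 called and a median of -0.08. The 7 that fell ranged from -1.20 for PSAN to -0.75 for PSBY. In a model of the 6 root arrays PSAE-1, PSBW and PSBY were still called, while PSAN, LHCB4.2, LHCB4.1 and PSB27 were not. LHCB4.3 had 0.55 and was not called.

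Other photosynthesis genes gave the same direction where called. PRK (phosphoribulokinase) had 4.0 and 4.0 in irt1 roots, 4.0 and 3.8 in wild-type roots without Fe and 5.0 and 5.2 in those with Fe. SBPASE (sedoheptulose bisphosphatase) and RCA (Rubisco activase) had log2 fold changes of -0.65 and -0.55, so that all 3 measured Calvin cycle genes fell. Of 8 measured chlorophyll and haem genes, of 26 on the list, 2 fell, the protochlorophyllide reductase PORB by 0.90 and the magnesium chelatase subunit CHLI2 by 0.55 on the log2 scale. The median of that list was -0.28. With each array centred on its median, PORB, CHLI2, RCA and SBPASE were not called.

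Shoot markers shared genes with these lists. The 4 measured of 20 shoot markers summed to log2 levels of 18.3 to 18.4 in irt1 roots and 19.9 to 20.7 in wild-type roots with Fe, against 47.2 to 48.2 in shoots, and the 3 that fell were RCA, PRK and SBPASE, the Calvin cycle genes given above. The other marker, ECS1, had 0.35 and was not called. The lowest group mean of the 4 in roots was 3.25. PRK, SBPASE and ECS1 were dim, with means of 4.0, 3.8 and 3.6 in irt1 roots, under the log2 level of 5 used to filter dim probe sets. The 200 probe sets most biased to shoots, chosen on the wild-type arrays without Fe, averaged 4.42 and 4.53 in irt1 roots and 4.77 and 4.87 in wild-type roots with Fe. Of them 64 were called lower and 2 higher, where over all probe sets 1.52% were called lower and 1.88% higher. The choice favours probe sets that are low in wild-type roots without Fe, where the 200 averaged 4.34 and 4.32. Of these 200, 15 belonged to the photosynthesis lists, with 10 lower, and among the other 185 there were 54 lower and 2 higher, with a median log2 fold change of -0.25. The 69 measured loci of the plastid genome, with a median of 3.80 higher in shoots than in roots on the log2 scale without Fe, averaged 5.87 and 6.14 in irt1 roots and 5.94 and 6.10 in wild-type roots with Fe. Their median log2 fold change was 0, with 0 called by limma and 2 at an unadjusted p under 0.05. The part of green tissue in the photosynthesis result was not tested.

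**Figure D3:**
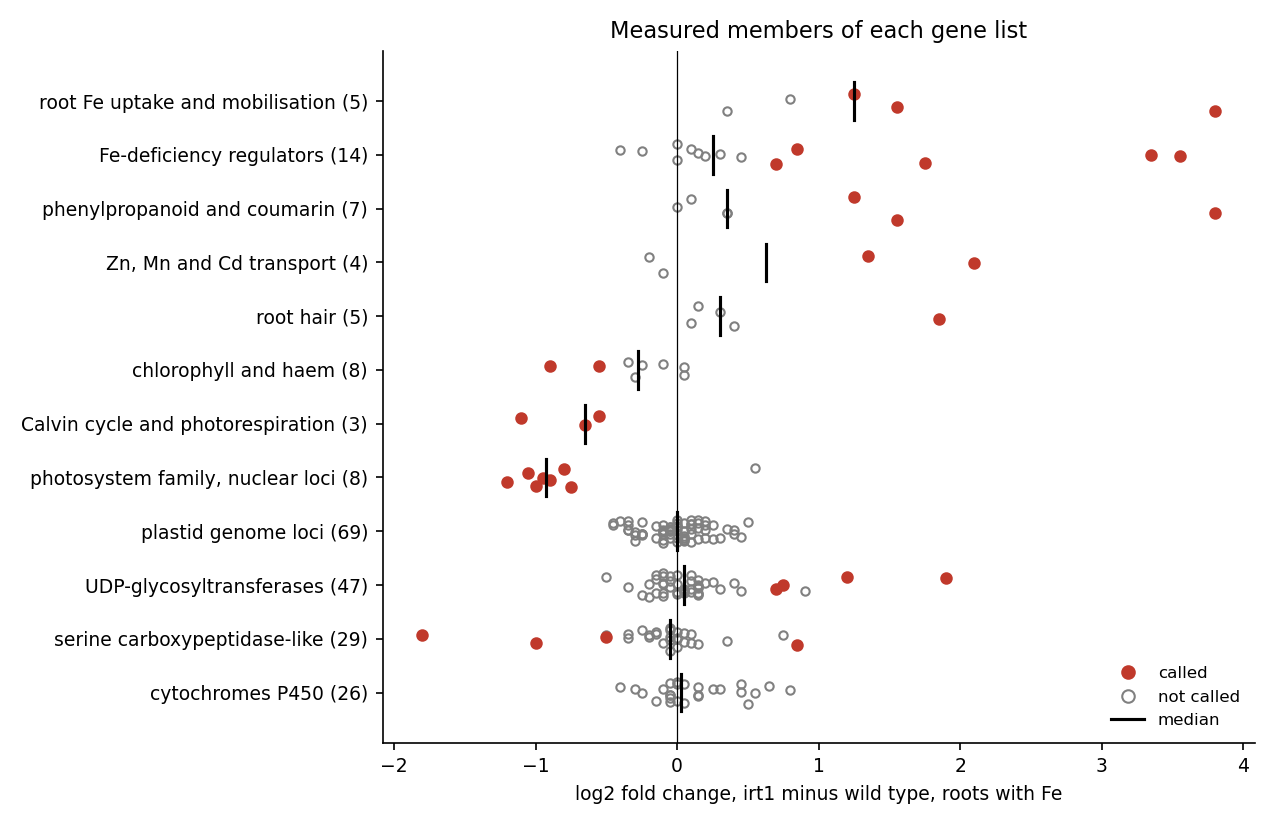
Log2 fold change of irt1 over wild-type roots with Fe (x axis) for each measured member of 12 gene lists and families (rows, with the number measured), filled red where called, open where not, with the list median as a bar. Fe mobilisation genes lie to the right and nuclear photosystem and Calvin cycle genes to the left, while the 69 plastid loci centre on 0; S8H, F6H1 and BGLU42 appear in both the Fe uptake and the phenylpropanoid row.

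Families of enzymes that modify small molecules and walls were mostly uncalled. Their counts stand beside 1.88% of all probe sets called higher and 1.52% called lower. Of 47 UDP-glycosyltransferases 4 rose and 0 fell, with a median log2 fold change of 0.05. UGT72E1, which glucosylates coniferaldehyde, had levels of 10.2 and 10.3 in irt1 roots and 8.3 and 8.4 in wild-type roots with Fe, a rise of 3.73-fold. UGT73D1 and UGT73B4 rose by log2 fold changes of 1.2 and 0.75. Of 20 beta-glucosidases 2 rose, BGLU42 and BGLU15, the second by 0.55. Among 29 expansins, extensins and xyloglucan endotransglucosylases 2 rose and 3 fell. The falling ones included the expansins EXPA15 and EXPA4, which loosen walls, at -1.20 and -0.85. Of 29 serine carboxypeptidase-like genes 1 rose (scpl20, 0.85) and 3 fell, among them scpl31 at -1.80 and SCPL32 at -1.0. Of 13 glutathione S-transferases GSTU21 rose by 0.95. Of 26 cytochromes P450 limma called 0, with 8 at an unadjusted p under 0.05.

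The next question was where irt1 roots with Fe differed from wild-type roots without Fe. Here 416 probe sets were called, 1.83% of those tested, 240 higher (1.06%) and 176 lower (0.774%) in irt1. The number became 116 without irt1 replicate 1, 81 without irt1 replicate 2, 163 without Fe-deficient replicate 1 and 97 without Fe-deficient replicate 2. Several genes that were high without Fe stayed near the Fe-supplied level in the mutant. CYP71B5 (AT3G53280), a cytochrome P450, had log2 levels of 4.0 and 4.0 in irt1 roots, against 7.5 and 8.0 in wild-type roots without Fe and 3.3 and 3.1 in those with Fe. It was 13.5-fold lower in irt1 than in Fe-deficient wild type (limma adjusted p = 3.87e-06). AT5G19890, a class III peroxidase, had 6.4 and 6.5 in irt1 roots, 8.3 and 8.9 in wild-type roots without Fe and 6.3 and 6.2 in those with Fe. UPOX, a mitochondrial gene induced by oxidative stress, had 3.8 and 4.0 in irt1 roots, 6.1 and 6.0 in wild-type roots without Fe and 4.0 and 4.0 in those with Fe. Both were 4.44-fold lower in irt1 than in Fe-deficient wild type, and UPOX overlapped the Fe-supplied arrays. AT3G02480, a late embryogenesis abundant protein gene, was 5.10-fold lower. AT4G33720, related to PR-1, was 5.46-fold lower on average, with the mutant replicates at 7.0 and 8.6, and its call was lost with 3 of the 4 arrays left out.

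The Fe response genes named above were also tested against Fe-deficient wild type. IMA1, MTP8, BGLU42, S8H, bHLH101, BTSL2 and PYE were called lower in irt1, with log2 fold changes of -1.85, -1.70, -1.75, -1.60, -1.25, -0.95 and -0.85. BTSL1, F6H1, ZIP9 and XTH26 had -0.70, -0.85, -0.35 and -0.50 and were not called. So 7 of these 11 were called under the level that wild type reached without Fe, where 0.774% of all probe sets were called lower. All 11 were named with their call as higher in irt1 roots known. The calls of IMA1, MTP8 and BGLU42 here held with any of the 4 arrays left out, as did those of CYP71B5, AT5G19890, UPOX and AT3G02480, while those of S8H, bHLH101, BTSL2 and PYE were lost without some of them. The mutant and Fe-deficient wild type are each compared with the same Fe-supplied arrays, so the overlap of their responses is not given.

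A further group lay outside both wild-type groups. In 129 probe sets, 0.567% of those tested, irt1 was called in the same direction against wild type with and without Fe, 93 higher and 36 lower, and 69 of them had a locus. Both contrasts use the same irt1 arrays, so this count is a description. It fell to between 32 and 63 with an array of the 3 root groups left out, and to 14 in a model of the 6 root arrays. AT4G07820, also related to PR-1, had 8.0 and 8.3 in irt1 roots, 6.2 and 6.3 in wild-type roots without Fe and 6.6 and 6.6 in those with Fe. It was 3.73-fold above Fe-deficient and 2.93-fold above Fe-supplied wild type. AT3G28510, of the AAA-ATPase family, had 6.1 and 5.7 in irt1 roots, 4.7 and 4.3 in wild-type roots without Fe and 4.0 and 3.7 in those with Fe. AT1G72060 had 5.2 and 5.3 in irt1 roots, 3.6 and 4.2 in wild-type roots without Fe and 3.5 and 3.9 in those with Fe. These 3 genes had no overlap between irt1 and any wild-type root array, and AT4G07820 and AT3G28510 were called against Fe-deficient wild type with any array left out. AT1G72060 was not called without 3 of the 4.

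Besides PRX52, the class III peroxidase given above, the group outside both included 4 peroxidase genes and 2 dirigent-like genes, picked after their values were seen. Of the families in the naming rule, that of peroxidases had 1 measured gene and that of dirigents, laccases and casparian strip proteins had 1, with log2 fold changes of 0.70 and -0.20 that were not called. The class III peroxidase AT5G19890, given above, was lower than in Fe-deficient wild type. AT5G66390, a class III peroxidase, had 10.3 and 10.4 in irt1 roots, 9.2 and 9.4 in wild-type roots without Fe and 9.5 and 9.2 in those with Fe. AT2G39430, a dirigent-like gene, had 9.4 and 9.2 in irt1 roots, 8.1 and 8.4 in wild-type roots without Fe and 8.2 and 7.9 in those with Fe. In both, the wild-type groups overlapped each other while irt1 stood above them. The peroxidases AT5G64120, AT2G35380 and AT5G14130 had log2 fold changes of 1.2, 0.80 and 0.55 over Fe-supplied wild type and 1.60, 0.60 and 0.65 over Fe-deficient wild type. The dirigent-like gene AT4G13580 had 1.05 and 1.15. Against Fe-deficient wild type, each of these 6 calls was lost with at least 2 of the 4 arrays left out. Of 8 measured genes with peroxidase names 3 rose and 0 fell, a family also set up after the annotation was seen. Their log2 fold changes ran from -0.70 to 2.40, and over all probe sets 1.88% were called higher. In a model of the 6 root arrays PRX52 was not called over Fe-supplied wild type (limma adjusted p = 0.0616). The monoterpene synthase TPS-CIN and the linker histone HIS1-3 were 3.48-fold and 3.03-fold above Fe-deficient wild type, with log2 fold changes of 0.70 and 0.65 over Fe-supplied wild type that were not called. Both calls against Fe-deficient wild type were lost with 3 of the 4 arrays left out.

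**Figure D4:**
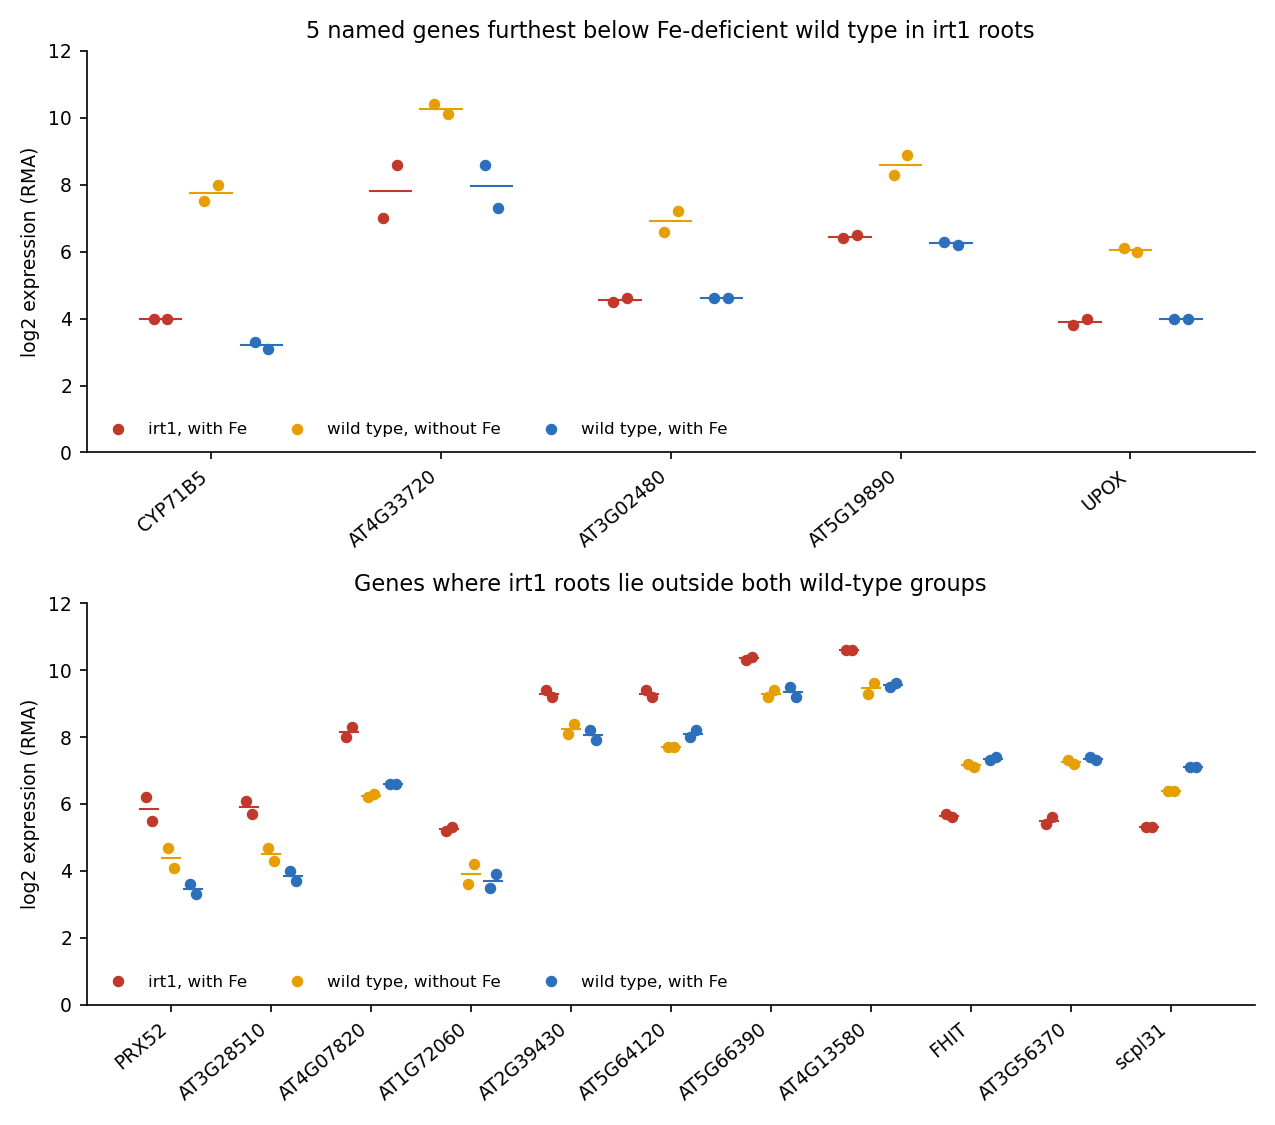
Log2 expression (y axis) of the 5 named genes furthest below Fe-deficient wild type in irt1 roots (upper panel) and of 11 genes whose irt1 roots lie outside both wild-type groups (lower panel, chosen after their values were seen), with both arrays of each group as points and their mean as a bar. CYP71B5 and UPOX sit near the Fe-supplied level in irt1, and AT4G07820 and AT5G66390 sit above both wild-type groups.

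The irt1 effect in roots was set against the irt1 effect in shoots of the same genotypes, to ask which changes differed between the tissues. The 2 effects differed for 455 probe sets, 2.0% of those tested, 257 (1.13%) with a more positive value in roots and 198 (0.87%) with a more negative one. S8H had a log2 fold change of 3.80 in roots and 0.05 in shoots, a difference of 3.75 (SE 0.35). AT3G61930 had 3.10 in roots and -0.05 in shoots, and AT5G04730 had 2.70 and -0.15. In shoots all 3 genes were uncalled. Other genes were called in both tissues to unequal degrees. IMA1 had 3.55 in roots and 6.35 in shoots, and bHLH101 had 3.35 and 5.90, differences of -2.80 and -2.55. PYE had 0.70 in roots and 1.95 in shoots, and AT5G05250 had 2.50 and 4.20.

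A further set changed in shoots with little in roots. AT4G36700, a cupin family gene, had 0.15 in roots and 5.35 in shoots. AT3G02480 had -0.05 and 4.15, and AT1G12030 had 0.30 and 3.95. SAPX, the stromal ascorbate peroxidase, had -0.30 in roots and -3.10 in shoots, and AT2G36885, called in both tissues, had -0.80 and -3.75. AT1G52820, by contrast, had -3.15 in roots and -0.40 in shoots. A total of 89 probe sets were called in the same direction in both tissues, 11.5% of the 774 root calls and 10.9% of the 813 shoot calls (3.57% of those tested in shoots), 42 higher and 47 lower, and 6 were called in opposite directions. These tissue contrasts share no arrays but share the spread estimated per probe set. The irt1 shoot replicate 1 stood apart in the RNA integrity control, with a GAPDH 3' minus 5' log2 difference of 1.6 against 0.7 to 1 on the other arrays. For actin the difference was 1.9 on that array and 1.7 on replicate 2 of wild-type roots without Fe, against 1 to 1.4 on the rest. That root array enters the contrast with Fe-deficient wild type. The number of probe sets that differed between tissues rose when irt1 shoot replicate 2 was left out, which kept only the array that stood apart. It fell when any other array of the tissue contrast was left out.

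**Figure D5:**
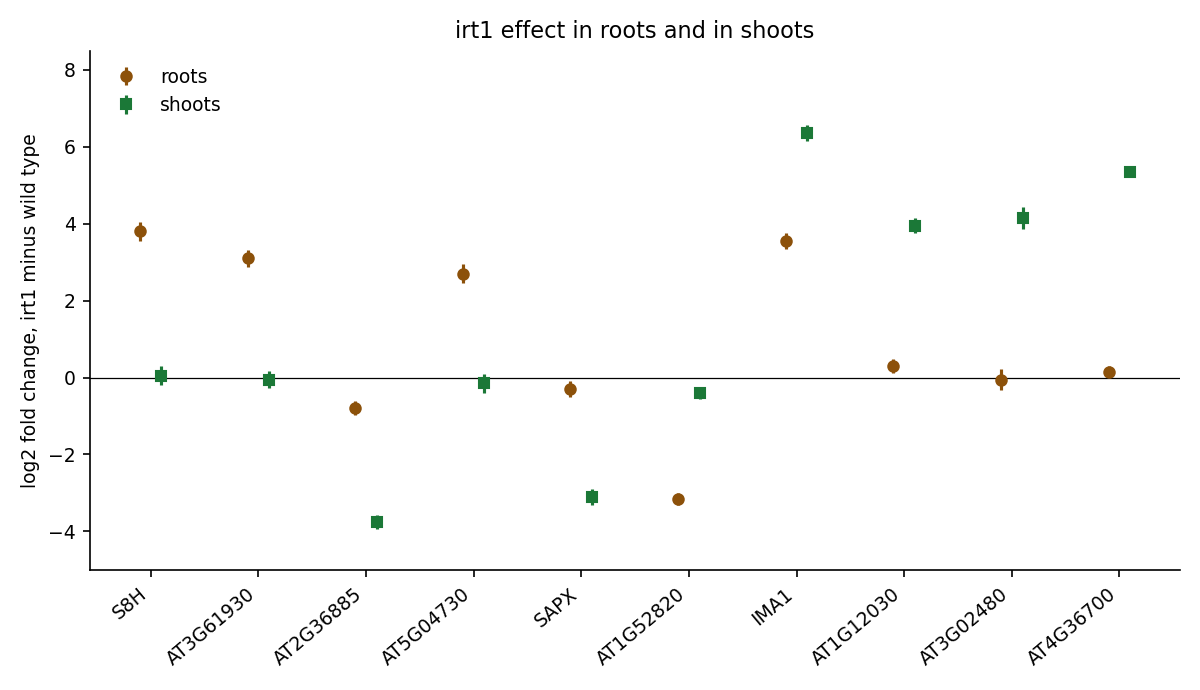
Log2 fold change of irt1 over wild type with Fe (y axis) in roots (brown circles) and shoots (green squares), with SE as bars, for the 5 named genes with the most positive and the 5 with the most negative difference between roots and shoots. S8H, AT3G61930 and AT5G04730 are high in roots and near 0 in shoots, AT4G36700, AT3G02480 and AT1G12030 are near 0 in roots and high in shoots, and IMA1 is high in both with the larger value in shoots.

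In 10 probe sets, 0.044% of those tested, irt1 differed in 1 direction from wild type with Fe and from wild type without Fe in both roots and shoots, 4 higher and 6 lower, and 6 had a gene. FHIT (AT5G58240), of the histidine triad family, had log2 levels of 5.7 and 5.6 in irt1 roots, 7.2 and 7.1 in wild-type roots without Fe and 7.3 and 7.4 in those with Fe. In shoots it had 5.9 and 6.0 in irt1 and 7.6 and 7.8 in wild type with Fe. AT3G56370, a leucine-rich repeat kinase gene, had 5.4 and 5.6 in irt1 roots, 7.3 and 7.2 in wild-type roots without Fe and 7.4 and 7.3 in those with Fe. The wild-type groups lay together in both genes, with irt1 below. AGL26 and AT4G12790 had log2 fold changes of -1.25 and -0.95 in roots, and AT3G53370 and AT5G26270 had 0.65 and 0.85. The root call against Fe-deficient wild type was lost with all 4 arrays left out in turn for AT3G53370 and 1 of the 4 probe sets without a gene, and with 3 of the 4 arrays for AT5G26270 and 2 more of those probe sets. Against Fe-supplied wild type AT3G53370, AT5G26270 and 1 probe set without a gene lost the root call with 3 of the 4 arrays, and another lost it with 2.

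Some of these called genes adjoin others. Among called loci 16 pairs were immediate neighbours in the RefSeq gene order, 15 in the same direction and 1 in opposite directions. Pairs among genes that were not called were not counted, so these numbers are a description only. The opposite pair was AT3G56370, at -1.85, and AT3G56360, at 1.45. On the other side AT3G56350, a manganese superoxide dismutase-like gene, had 0.50. AT5G26270 and AT5G26280 had 0.85 and 0.75. These neighbours were picked after their values were seen.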

How the data were processed

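The deposited table holds log2 expression values made by the authors with RMA, which corrects background, quantile normalises arrays and summarises probes by median polish, per the submitters' processing notes. Neither its version nor the set of arrays normalised jointly is given in the sources used here. Biotinylated cRNA was made from total RNA, per the labels' protocols. Values run from 1.9 to 13.5 and are rounded to 1 decimal, so a group difference moves in steps of 0.05, and low levels understate changes. The number of arrays limits the precision.

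Groups and replicate numbers came from the titles. Genes came from the platform annotation, updated through RefSeq (TAIR10.1); 13436 probe sets matched a locus. Names of listed genes such as S8H, F6H1, COSY, IMA1, BTSL1, BTSL2, MTP8 and UPOX were assigned by locus. All 12 arrays entered a limma 3.58.1 model (R 4.3.3) with a mean per group, 6 residual degrees of freedom, eBayes (two-sided) and Benjamini-Hochberg adjustment over 22746 probe sets. A probe set was called at an adjusted p under 0.05. Standard errors (SE) and adjusted p-values come from it, and a log2 fold change given without a p is from it too. With 2 arrays a group, the smallest two-sided p of an exact permutation is 0.333, so no such test was run. The model was tested on simulated data.

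Members, lists and the naming rule were chosen with earlier results of these data known. The rule took the 12 highest and 12 lowest called genes with non-overlapping groups, up to 4 called members of each list and 3 of each family, the 5 highest and 5 lowest of the other contrasts, and a pair of unannotated probe sets per direction. Of the lists, those of Fe and nicotianamine transport, endodermis, vascular tissue, root cap, cell division and phosphate had 0 measured genes. Those of Fe storage, antioxidant enzymes, and mitochondrial and ABA stress had 2 each, and those of nitrate, ethylene and jasmonate 1 each, with 0 called. Alternatives were other models, weights, scalings, a filter on dim probe sets, a replicate block, a 2-fold minimum and leaving out each array. Replicate differences correlated between irt1 and wild-type roots at r = 0.199 but between other groups at -0.092 to 0.182, so the numbers were not taken to pair samples.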

Additional observations from a re-analysis of the deposited data

Results flagged for a closer look

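The effect of irt1 differed between roots and shoots, by the test of that difference in limma, for 455 probe sets and for many of the genes named above. The values below are the log2 fold change in roots minus that in shoots. Among genes higher in irt1 roots, the difference was 3.75 for S8H, 3.15 for AT3G61930, 2.85 for AT5G04730, 2.80 for AT4G19370, 2.70 for AT4G09110, 2.60 for PRX52, 2.25 for MTP8 and 2.20 for AT3G07720. It was 1.95 for XTH26, 1.90 for UGT72E1, 1.90 for AT3G28510, 1.80 for AT4G07820, 1.65 for ZIP9, 1.65 for AT2G39430, 1.40 for ARPN, 1.30 for AT5G66390, 1.25 for GSTU21, 1.10 for BGLU42 and 0.75 for AT2G35380. IMA1, bHLH101 and AT5G05250, higher in irt1 in both tissues, had -2.80, -2.55 and -1.70, the larger effect being in shoots.

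Among genes lower in irt1 roots, the difference was -2.75 for AT1G52820, -2.30 for AT2G41810, -2.20 for PDF2.1, -1.95 for scpl31, -1.80 for AT1G10640, -1.70 for AT2G43890, -1.60 for SP1L2 and -1.25 for AT2G28780. It was -1.10 for SCPL32, -1.05 for PRK, -0.90 for LHCB4.2 and -0.75 for PSAE-1. AT3G49160 and AT2G36885, which fell further in shoots, had 2.25 and 2.95.

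Genes whose change lay in shoots gave differences of -5.20 for AT4G36700, -4.20 for AT3G02480, -3.65 for AT1G12030 and -1.60 for UPOX, and of 2.80 for SAPX. The unannotated probe sets 253502_at, 254098_at, 251677_at and 254550_at had 5.15, 3.95, -1.90 and -4.35.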

How the results depend on the processing

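In every called probe set the groups lay apart, so leaving out or weighting an array could not turn its sign. Changes of model or filter keep the log2 fold change as it is. With these limits, no named or listed gene that was called as reported changed sign under any of the alternatives. Of 90 that were called, 39 stayed called in every alternative but the model of 4 arrays, 41 were lost with at least 1 array left out, and the 6-array root fit lost 41. The calls, as higher and lower in irt1 roots, numbered 428 and 346 as reported, 140 and 81 with the 6 root arrays alone, 214 and 145 with those arrays quantile normalised again, 0 and 0 in a model of the 4 arrays (lowest adjusted p 0.0773), 783 and 698 with array weights, and 157 and 88 with a 2-fold minimum. Leaving out an array gave 144 to 213 higher and 108 to 146 lower. With 1 array left out of a group, the other is assumed to vary like the other groups. Against Fe-deficient wild type, calls fell to between 81 and 163 with an array left out, against 416. The 129 probe sets outside both wild-type groups, an alternative count chosen after seeing the data, became 14 with the root arrays alone, 19 with those normalised again, 199 with array weights and 32 to 63 with an array left out. For the root minus shoot difference, they lay between 178 and 654, against 455. A model with the replicate block called 469 higher and 393 lower and lost 1 of the 90 genes, RCA, although the replicate numbers were not shown to pair the samples. These counts therefore rest on the pooled spread, while log2 values of strong genes such as S8H and IMA1 do not change with it. The causes of these changes were not tested. In the model as reported, no change under 0.4 on the log2 scale was called.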

Other observations

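Outside the lists, a few named genes of primary metabolism were called above both wild-type groups in irt1 roots, and they were picked after their values were seen. FDH (AT5G14780), the mitochondrial formate dehydrogenase, had a log2 fold change of 1.00 over Fe-supplied wild type and 1.15 over Fe-deficient wild type. Both calls were lost whichever of their 4 arrays was left out. THIC (AT2G29630), the iron-sulfur enzyme of thiamine synthesis, had 1.00 and 0.80, and its call against Fe-deficient wild type was lost with 3 of the 4. PIR121 (AT5G18410), a subunit of the WAVE complex that promotes actin branching, was below both, at -1.05 and -0.90, the second call being lost without irt1 replicate 2. Of 15 measured glycosyl hydrolase family 9 genes, a family set up after the annotation was seen, 2 fell in irt1 roots and 0 rose, with a median log2 fold change of -0.10.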
